A study of Mus musculus with 30 samples.

Results

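The genes described here encode the subunits and some of the assembly factors of the oxidative phosphorylation machinery of the mitochondrion. They were taken from the table by symbol: every row that begins with Nduf, Uqcr, Cox4 to Cox8 or Atp5, and Sdha, Sdhb, Sdhc and Sdhd. Of 92 matching symbols 1 is not analysed here, which leaves 91 of 25611 gene rows. They were sorted by textbook role into 7 core subunits, 29 accessory subunits and 8 assembly factors of complex I, 4 subunits of complex II, 8 of complex III, 19 of complex IV and 16 of complex V. Genes of the mitochondrial genome are not analysed here.

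Complexes I and II pass electrons from NADH and succinate to coenzyme Q, complex III passes them on to cytochrome c, and complex IV hands them to oxygen. Complexes I, III and IV pump protons across the inner membrane, and complex V, the ATP synthase, uses the gradient to make ATP. Dendritic cells are known to lean on this machinery at rest and to shift towards glycolysis after strong activation by microbial products.

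RNA was sequenced from mouse bone marrow cells that had been differentiated in FLT3L (200 ng/ml, 6 to 7 days) into dendritic cells. The cells were wild type (WT) or carried a knockout of Rubcn (KO), a gene of LC3-associated phagocytosis. Each genotype was left untreated, given ovalbumin protein (OVA) for 30 min or 4 h, or fed apoptotic cells of Jurkat, an established line from a human T-cell leukaemia, for the same times. This makes 10 groups with 3 libraries in each. All groups share the FLT3L culture, and the labels do not say whether the knockout was limited to a cell type, nor whether the libraries of a group came from separate mice or cultures. The p-values therefore measure the spread between these libraries, which may be technical.

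Within each of the 5 conditions, every KO library held less Rubcn RNA than any WT library of the same condition. The KO mean was 73.6% of the WT mean in untreated cells (-0.44 ± 0.05 on the log2 scale, SE) and 78.4% to 84.7% under treatment. The labels do not say which part of the gene was removed, so counts from the rest of it can remain. Total counts ran from 9.73 M, in KO OVA 30 min replicate 3, to 51.6 M per library, with a median of 44.9 M. All 10 dendritic cell markers that were examined, such as Flt3, Itgax and Zbtb46, had a mean above 1 CPM (counts relative to library size, scaled by the TMM method) in all 10 groups. A summed level of 5 stromal markers was higher in KO than in WT, 685.6 to 862.3 CPM against 537.4 to 616.6 CPM in untreated cells. That of 5 basophil markers was 50.46 to 79.29 CPM in untreated KO and 19.37 to 25.72 CPM in untreated WT, and no KO library of any condition overlapped a WT library (50.46 CPM at the lowest against 33.34 CPM at the highest). Of 30 T-lineage markers, 16 were under 1 CPM in both untreated groups. Their sum before treatment was 4.34 ± 0.162 CPM (SD, n = 3) for WT and 5.18 ± 0.876 CPM for KO. With Jurkat cells it was 43.5 ± 1.16 CPM in WT and 27.8 ± 5.99 CPM in KO at 30 min, and 113 ± 16.5 CPM and 77.6 ± 9.64 CPM at 4 h. How the authors' counting treated human reads is not given in the sources used here. The part of other cells' RNA in the results below was not tested, and in bulk RNA fewer cells of a type and less RNA per cell cannot be told apart.

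Of the 91 members, 87 passed the filter on low counts and were tested. Cox7b2, Cox8c and Ndufs5 had 0 counts in all 30 libraries, and Cox8b had 11 counts in 9 libraries. A count of 0 allows 3 counts, or 0.0651 CPM in a library of median depth, by counting error alone. Ndufs5 is an accessory subunit of complex I on chromosome 4 (mm10, 123712710 to 123718186). Its interval overlaps that of another gene in the table, BC002163, on the same strand over 5452 of 5477 bases, and BC002163 was also at 0. The 0 of Ndufs5 thus cannot be read as absence of its RNA. Pseudogene copies or other annotated genes share stretches with other members too. At least 20% of the 50-base stretches of 12 members recur in other annotated genes, so their counts are uncertain. The share was 68.5% for Atp5l, 47.9% for Atp5h, 43.2% for Uqcrb, 37% for Ndufb4, 35.8% for Ndufs3 and 35.5% for Atp5o. It was 31.1% for Ndufs5, 27.9% for Cox7c, 26.2% for Ndufa12, 25.9% for Cox5b, 23.4% for Ndufb9 and 23.2% for Atp5f1. Members under 20% are not all free of shared stretches, such as Cox7a2l at 17.7% and Cox6c at 13.9%.

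Promoters were searched for 3 motifs of factors known to act on genes of respiration, and the stretches printed here belong to genes whose values the results turn on. RefSeq (GRCm38.p6) held a window of 250 bases before and 50 after the start for 76 of the 91 members. The letters searched, on both strands, were GCGCATGCG (NRF1), CCGGAAG (ETS factors such as GABPA) and AAGATGGCG (YY1). NRF1's letters stood in 10 of 76 members (13.2%) against 1.95% of 27025 genes with a window. Those of ETS stood in 18 members (23.7%) against 9.93%, and those of YY1 in 8 (10.5%) against 1.64%. Any of the 3 stood in 30 members (39.5%) against 12.7%. Genes had 1.22 windows each on average and members 1.07. A match is a description of letters, not a bound site. The 120 bases before the start are printed 5′ to 3′ on the strand of the gene, with overlapping NRF1 matches of the 2 strands in capitals. The first 3 hold such matches, and the last 4 hold none of the 3 motifs.
Atp5k, minus strand, chr5:108434400-108434519: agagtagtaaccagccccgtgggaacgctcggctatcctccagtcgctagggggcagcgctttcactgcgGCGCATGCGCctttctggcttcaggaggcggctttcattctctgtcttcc
Atp5g2, minus strand, chr15:102671048-102671167: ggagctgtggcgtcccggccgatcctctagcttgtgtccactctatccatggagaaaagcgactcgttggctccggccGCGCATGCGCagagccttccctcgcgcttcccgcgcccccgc
Ndufaf4, plus strand, chr4:24897963-24898082: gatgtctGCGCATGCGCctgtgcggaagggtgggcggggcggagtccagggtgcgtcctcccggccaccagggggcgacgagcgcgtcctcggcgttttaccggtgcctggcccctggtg
Cox7a2l, minus strand, chr17:83514334-83514453: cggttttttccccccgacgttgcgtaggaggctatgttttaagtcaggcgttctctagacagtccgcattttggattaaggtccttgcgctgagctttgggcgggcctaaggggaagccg
Ndufa6, minus strand, chr15:82354292-82354411: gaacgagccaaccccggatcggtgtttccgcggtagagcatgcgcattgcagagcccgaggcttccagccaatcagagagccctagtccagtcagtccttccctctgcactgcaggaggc
Ndufaf7, plus strand, chr17:78937015-78937134: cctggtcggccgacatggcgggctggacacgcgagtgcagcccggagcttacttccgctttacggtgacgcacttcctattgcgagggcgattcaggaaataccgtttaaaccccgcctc
Atp5g3, minus strand, chr2:73911327-73911446: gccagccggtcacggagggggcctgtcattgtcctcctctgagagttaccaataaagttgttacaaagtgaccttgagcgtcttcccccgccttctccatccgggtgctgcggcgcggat

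In untreated WT cells the ATP synthase genes held the largest share of the members' RNA. Complex V made up 38.6 ± 0.0748% of the members' summed CPM (SD, n = 3), complex I with its assembly factors 26 ± 0.111%, complex IV 18.3 ± 0.14%, complex III 9.78 ± 0.129% and complex II 7.31 ± 0.106%. Levels were also taken per kilobase of annotated exon (GENCODE M21), with all exons of a gene joined. The highest was 213 ± 4.52 CPM per kb for Atp5a1, the alpha subunit of ATP synthase. Cox8a, a small subunit of complex IV, stood at 212 ± 5.95. These 2 genes did not differ beyond their SD. Cox4i1 (179 ± 10.3), the beta subunit gene Atp5b (176 ± 4.27) and Cox6a1 (175 ± 5.54) followed and also lay within each other's SD. Assembly factors of complex I lay between 2.13 (Ndufaf2) and 13.9 (Ndufaf8) CPM per kb, with Ndufaf7 at 6.98 ± 0.13. Some subunits were as low per kilobase, such as Ndufab1 at 0.892 and Ndufs1 at 8.64, whose joined exons were long (6883 and 8086 bases). The isoform Cox4i2, known for its use under low oxygen, stood at 0.0889 ± 0.0576 CPM per kb, against 179 for its common partner Cox4i1.

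No member was called between untreated KO and WT cells. None of the 87 was higher in KO (6% of all genes tested were) and none was lower (3.97% of all genes), by edgeR's quasi-likelihood test with Benjamini-Hochberg adjustment over 14808 genes (FDR under 0.05). DESeq2 also called 0, and 2 members had an unadjusted p under 0.05. The median log2 fold change was 0.00 over the members and -0.01 over all genes. Among the 83 members with a mean of at least 1 CPM, log2 fold changes ran from -0.15 to 0.09, with a median SE of 0.0515 over the members tested. Sdha, the flavoprotein subunit of complex II, was at 236, 239 and 236 CPM in WT and 241, 237 and 235 CPM in KO, ranges that overlap. Atp5b was at 724, 759 and 750 CPM in WT and 763, 762 and 744 CPM in KO, again overlapping.

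The same count was found in the other genes of the pathway. The 8 lists of assembly factors of complexes I to V, of carriers and coenzyme Q enzymes, of the tricarboxylic acid (TCA) cycle and of regulators such as Nrf1 and Tfam held 0 called genes between untreated KO and WT cells, among 85 tested. Of all genes 6% were higher in KO and 3.97% lower.

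OVA for 30 min gave 1 call in WT and 0 in KO. In WT 0 members rose (5.51% of all genes) and 1 fell (5.15%), and in KO 0 rose and 0 fell (1.88% of all genes in each direction). DESeq2 called 1 and 0 as well, and 2 and 4 members had an unadjusted p under 0.05. The member that fell was Ndufaf3, an assembly factor of complex I. It was at 13.4, 16.4 and 14.5 CPM in untreated WT and 13, 11.4 and 12.8 CPM with OVA, with no overlap, a log2 fold change of -0.25 ± 0.07 (SE, FDR = 0.0235). Without WT OVA 30 min replicate 2 or WT untreated replicate 2 the count was 0, and without KO OVA 30 min replicate 1 it was 2 in KO.

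After 4 h of OVA small rises were called in WT in all classes but complex II and the core of complex I. In KO the assembly factors of complex I had no call either. In WT 24 members rose (11.9% of all genes) and 1 fell (11.7%), with a median of 0.11 over the members against 0.00 over all genes. In KO 9 rose (5.94%) and 0 fell (5.69%), with a median of 0.06. Both genotypes shared 5 of these calls, 20% of those in WT and 55.6% of those in KO, all of them rises. The counts fell to 13 in WT without WT OVA 4 h replicate 2 and to 5 in KO without KO untreated replicate 1.

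Atp5g3, a gene for the proton-carrying c subunit of ATP synthase, rose in both genotypes. In WT it was at 145, 151 and 146 CPM untreated and 170, 172 and 168 CPM with OVA, a log2 difference of 0.20 ± 0.04 (FDR = 0.000266). In KO it went from 153, 158 and 157 CPM to 171, 166 and 177 CPM, 0.14 ± 0.04 (FDR = 0.0219). Neither genotype's libraries overlapped. The largest rises by class in WT were Ndufa2 (0.29 ± 0.08), Ndufaf4 (0.28 ± 0.08), Uqcr10 (0.27 ± 0.05), Cox6c (0.24 ± 0.06) and Atp5e (0.22 ± 0.05), all on the log2 scale. In KO they were Ndufc2 (0.29 ± 0.07), Atp5k (0.27 ± 0.07), Uqcr11 (0.25 ± 0.06) and Cox7c (0.22 ± 0.07). Ndufaf7, an assembly factor of complex I, was the member that fell in WT: 24.9, 24.4 and 24 CPM untreated against 20.3, 22.1 and 21.3 CPM (-0.20 ± 0.04, FDR = 0.000504). The difference between the genotypes in the response to 4 h of OVA was called for 0 members in either direction (0% and 0.0405% of all genes), with 3 at an unadjusted p under 0.05 and 0 by DESeq2.

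Many members were higher in WT libraries after 30 min with apoptotic Jurkat cells than in untreated WT libraries. Of the 87, 46 rose (14.2% of all genes) and 0 fell (14.5%), and 80 had a log2 fold change above 0. The median was 0.13 over the members and 0.01 over all genes. By class, 4 of 7 core subunits, 21 of 28 accessory subunits and 1 of 8 assembly factors of complex I rose, with 2 of 4 members of complex II, 3 of 8 of complex III, 9 of 16 of complex IV and 6 of 16 of complex V.

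Cox7c, a small subunit of complex IV whose reads may be shared with copies, was at 31, 33 and 29.7 CPM in untreated WT cells and 41.9, 41 and 35.4 CPM after 30 min, 0.34 ± 0.07 on the log2 scale (FDR = 0.000362). The libraries did not overlap, and replicate 3 was the lowest. Atp5g3 went from 145, 151 and 146 to 179, 176 and 172 CPM, without overlap (0.25 ± 0.04, FDR = 1.93e-05). Other leading rises were Ndufaf8 (0.32 ± 0.07), an assembly factor of complex I, Ndufc2 (0.28 ± 0.07), Uqcrq (0.24 ± 0.06), Ndufs7 (0.16 ± 0.06) and the iron-sulphur subunit of complex II, Sdhb (0.13 ± 0.04).

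The summed level of the 91 members was 6880, 7217 and 6984 CPM in untreated WT and 7877, 7658 and 7228 CPM with Jurkat cells, so replicate 3 stood barely above the untreated range. The count of 46 rested on single libraries: it was 15 without WT Jurkat 30 min replicate 1, 26 without replicate 2, 28 without WT untreated replicate 1 and 27 without WT untreated replicate 3. It was 51 without WT Jurkat 30 min replicate 3. The T-lineage sum given above was 42.4 to 44.7 CPM in these 3 libraries.

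In KO cells 4 members rose with Jurkat cells at 30 min (8.72% of all genes) and 0 fell (8.26%), with a median of 0.06. These were Ndufa12, an accessory subunit of complex I (0.22 ± 0.06), which like Cox5b may share reads with other annotated genes, Atp5g3 (0.13 ± 0.04), Cox5b of complex IV (0.12 ± 0.04) and Uqcrfs1, the Rieske iron-sulphur protein of complex III (0.11 ± 0.03). All 4 were also among the 46 of WT, 8.7% of them. The count was 0 without KO Jurkat 30 min replicate 2 and 2 without KO untreated replicate 1. The difference between the genotypes in this response was tested directly, as a comparison added after the data were seen. It was called for 0 members higher and 0 lower (0% and 0.00675% of all genes), by DESeq2 for 0, and 6 had an unadjusted p under 0.05. The median difference was -0.06, with 72 of 87 members below 0. The unequal counts of 46 and 4 are therefore not shown to be a difference between genotypes.

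The response at 4 h to Jurkat cells had the most calls and was of mixed sign. In WT 46 members rose (38.9% of all genes) and 20 fell (40.6%), and in KO 44 rose (37.5%) and 22 fell (41%). As shares of the members, 52.9% rose and 23% fell in WT, and 50.6% and 25.3% in KO. The median log2 fold change was 0.14 in WT and 0.11 in KO, against -0.02 and -0.03 over all genes. In both genotypes 59 members were called, 89.4% of the calls of each, and each of the 59 had the same sign, 39 higher and 20 lower. Across the 83 members with at least 1 CPM, Pearson's r between the responses of WT and KO was 0.958 and Spearman's rho 0.943. The 2 responses come from separate libraries, but genes are not independent replicates.

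Other markers moved in the same libraries. The stromal sum went from 537.4 to 616.6 CPM in untreated WT to 767.2 to 893.8 CPM, and in KO from 685.6 to 862.3 CPM to 978 to 1215 CPM. The sum of 5 cell division markers went from 1490 to 1504 CPM to 1017 to 1029 CPM in WT, and from 1350 to 1429 CPM to 963.1 to 1004 CPM in KO. The sum of 10 dendritic cell markers went from 9485 to 10180 CPM in untreated WT to 13190 to 13580 CPM. In KO that sum went from 9398 to 9866 CPM to 12300 to 13170 CPM. All these sums are on TMM-scaled libraries, so the sizes of their changes depend on the scaling. The part of these markers in the result was not tested.

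These directions depend on how libraries are scaled. TMM factors were 0.765 to 0.842 in the 6 libraries with Jurkat cells at 4 h and 1.03 to 1.07 in the others. When libraries were instead scaled to their total counts, the all-gene median was lower by 0.402 in WT and by 0.338 in KO, and the calls became 3 higher and 63 lower in WT and 3 higher and 59 lower in KO. Relative to the median of all genes, the median of the members was 0.164 above in WT under TMM and 0.165 above under total counts, and 0.14 and 0.139 above in KO. Under both scalings 20 of 87 members fell in WT (40.6% of all genes) and 22 in KO (41%). Those that rose under both were Atp5g3, Cox5a and Cox4i2 in WT, and Atp5g3, Ndufb6 and Cox4i2 in KO. Of all genes 24.1% and 23.9% did. In the plot of fold changes by complex, complex IV lay highest and complex I was split.

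**Figure D1:**
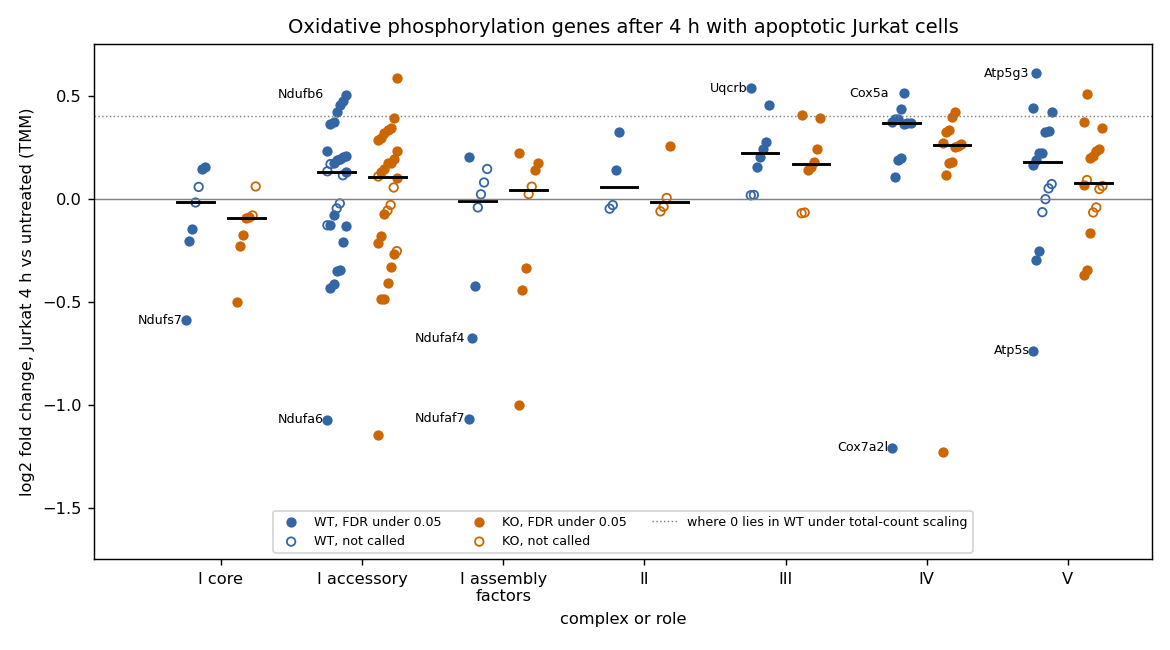
Each point is 1 member with a mean of at least 1 CPM. The vertical axis is its log2 fold change after 4 h with apoptotic Jurkat cells against untreated cells of the same genotype (TMM scaling), the horizontal axis its complex or role. Filled points passed an FDR of 0.05, black bars are medians, and the dotted line shows where 0 would lie in WT if libraries were scaled to total counts. Complex IV had a median of 0.37 in WT with Cox7a2l far below at -1.21, while complex I in WT spread from -1.07 to 0.50.

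Complex I is the largest class and was split. Of its 43 tested members 16 rose and 15 fell in WT, where 38.9% of all genes rose and 40.6% fell, and 17 rose and 17 fell in KO, where 37.5% and 41% did. Its share of falls was thus not above that of all genes. Falls under both scalings were called for 3 of 7 core subunits, 9 of 28 accessory subunits and 3 of 8 assembly factors in WT, and for 5, 9 and 3 in KO. Of all genes, 40.6% in WT and 41% in KO fell under both.

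Ndufa6 (mm10, chromosome 15, 82350139 to 82354291), an accessory subunit that sits on the matrix arm, fell by over a factor of 2 in both genotypes: it dropped to 47.6% of the untreated mean in WT and 45.2% in KO. In WT it was at 77.4, 78.7 and 75 CPM untreated and 37, 36 and 36.9 CPM after 4 h (-1.07 ± 0.05, FDR = 2.94e-17). In KO it was at 76.5, 79.1 and 80.6 CPM and then 35, 36.1 and 35.6 CPM (-1.15 ± 0.05, FDR = 5.64e-18). At 30 min with Jurkat cells it was still at 94.8, 87.8 and 77.3 CPM in WT, so the low values were seen at 4 h and with Jurkat cells: with OVA for 4 h it was at 76.7, 79.7 and 77.9 CPM.

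Ndufaf7 (chromosome 17, 78937135 to 78948052) was also at its lowest with Jurkat cells at 4 h, besides its smaller fall with OVA in WT given above. It was at 24.9, 24.4 and 24 CPM in untreated WT and 11.9, 11.7 and 11.4 CPM after 4 h of Jurkat cells (-1.07 ± 0.05, FDR = 6.21e-19). In KO it went from 22.9, 24.4 and 24.1 CPM to 12.3, 11.7 and 11.7 CPM, or 49.9% of the untreated mean (FDR = 2.39e-18). No library with Jurkat cells at 4 h overlapped any other library of the series for Ndufaf7, Ndufa6 or Cox7a2l.

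Ndufs7, the core subunit that carries the last iron-sulphur cluster before coenzyme Q, fell by 0.59 ± 0.06 on the log2 scale in WT (FDR = 3.11e-10) and by 0.50 ± 0.06 in KO (FDR = 7.38e-09). Its libraries were at 43.4, 48.3 and 46.7 CPM in untreated WT and 31.1, 28.9 and 31.8 CPM after 4 h. The core subunit Ndufs8 also fell in both genotypes (-0.15 ± 0.04 in WT, -0.18 ± 0.04 in KO). Ndufv1, which binds NADH, rose in WT (0.15 ± 0.05, but -0.25 under total counts) and had a value of 0.06 ± 0.05 in KO. Ndufaf4 fell in WT from 19.3, 16.3 and 15.4 CPM to 10.7, 9.66 and 11.5 CPM (-0.68 ± 0.09), and in KO by 0.34 ± 0.08.

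Ndufb6, an accessory subunit of the membrane arm, moved the other way. It went from 26.4, 24.9 and 23.8 CPM to 34.1, 35.2 and 37.1 CPM in WT (0.50 ± 0.06, FDR = 4.5e-09) and from 23.5, 23.6 and 25.6 CPM to 33.6, 37.8 and 37.8 CPM in KO (0.59 ± 0.06, FDR = 1.81e-10). Neither pair of groups overlapped. Ndufab1, the acyl carrier protein that also serves mitochondrial fatty acid synthesis, rose in KO (0.28 ± 0.09) and gave 0.17 ± 0.10 in WT. Both values of Ndufab1 were smaller than the shift between scalings (0.338 in KO, 0.402 in WT). Ndufb6 was called higher under both scalings in KO but not in WT, and Ndufab1 in neither.

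Complex II had 2 of 4 members called in WT and 1 in KO, all higher under TMM, where 38.9% and 37.5% of all genes rose. Under both scalings 0 rose in either genotype. Sdha gave -0.03 ± 0.03 in WT and -0.06 ± 0.03 in KO, neither called, and Sdhd gave -0.05 and -0.04. Sdhc, a membrane anchor, rose from 66.3, 71.2 and 70.5 CPM to 84.8, 87.6 and 87.5 CPM in WT (0.32 ± 0.04) and by 0.26 ± 0.04 in KO, but under total counts stood at -0.082 in WT and -0.084 in KO. Sdhb rose in WT (0.14 ± 0.04) and gave 0.00 ± 0.04 in KO.

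Complex III rose in 6 of 8 members in each genotype and fell in none, under TMM. Of all genes 38.9% rose and 40.6% fell in WT, and 37.5% and 41% in KO. Under both scalings 0 of the 8 rose in either genotype. Uqcrb had the largest rise, from 43.7, 47.3 and 42.9 CPM to 60.7, 65.5 and 67.9 CPM in WT (0.53 ± 0.06) and by 0.40 ± 0.06 in KO. Its reads may be shared with copies, as said above. The Rieske protein gene Uqcrfs1 rose by 0.27 ± 0.03 and 0.24 ± 0.03. Of the core proteins, Uqcrc1 rose by 0.20 ± 0.04 and 0.15 ± 0.04, while Uqcrc2 gave 0.02 ± 0.04 and -0.07 ± 0.04.

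Complex IV had the highest medians under TMM, 0.37 in WT and 0.26 in KO. Of its 16 members 13 were called higher in WT (38.9% of all genes) and 12 in KO (37.5%). Under both scalings 2 of the 16 rose in WT and 1 in KO, against 24.1% and 23.9% of all genes. Cox5a was at 99.1, 103 and 103 CPM in untreated WT and 145, 143 and 146 CPM after 4 h, 0.51 ± 0.04 on the log2 scale (FDR = 4.66e-13). In KO it went from 104, 109 and 104 CPM to 131, 132 and 136 CPM (0.33 ± 0.04, FDR = 4.3e-09). Cox4i1 rose by 0.37 ± 0.05 and 0.25 ± 0.05, and Cox5b by 0.36 ± 0.04 and 0.27 ± 0.04. Ndufa4, named for complex I but known as a subunit of complex IV, rose by 0.19 ± 0.05 and 0.18 ± 0.05.

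Cox7a2l (chromosome 17, 83501917 to 83514333) was the 1 fall among the 12 members of complex IV with a mean of at least 1 CPM. The other 11 rose in each genotype under TMM, as 38.9% of all genes did in WT and 37.5% in KO. Cox7a2l is known as a factor that helps join complexes III and IV into supercomplexes rather than as a core part of complex IV. It was at 118, 128 and 119 CPM in untreated WT, 132, 127 and 117 CPM after 30 min with Jurkat cells, and 51.8, 50.4 and 55.7 CPM after 4 h. In KO it was at 125, 133 and 126 CPM, then 124, 128 and 126 CPM, then 56.6, 53.5 and 54 CPM. The fall was to 43.2% of the untreated mean in WT (-1.21 ± 0.04, FDR = 2.23e-20) and to 42.7% in KO (-1.23 ± 0.04, FDR = 1.5e-20). Its share of the members' summed CPM went from 1.73 ± 0.0402% to 0.675 ± 0.025% in WT and from 1.81 ± 0.0298% to 0.727 ± 0.0177% in KO, a measure that does not depend on scaling. Against OVA at 4 h the log2 difference was -1.16 ± 0.04 in WT and -1.15 ± 0.04 in KO.

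The low isoforms of complex IV also moved, at levels near the limit of counting. Cox4i2 was at 0.0445, 0.0431 and 0.122 CPM in untreated WT (2, 2 and 6 counts) and 0.289, 0.658 and 0.571 CPM after 4 h of Jurkat cells (11, 22 and 19 counts), a log2 change of 2.76 ± 0.61 (FDR = 0.000166), and it rose by 2.14 ± 0.58 in KO. Its interval overlaps that of Bcl2l1 on the opposite strand over 6306 of 10865 bases, and the use of strand in counting is not given, so the 2 genes' reads cannot be told apart with certainty. Cox6b2, an isoform known from testis, fell by 0.98 ± 0.24 in WT and 0.84 ± 0.23 in KO from under 1 CPM.

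Complex V rose in 9 of 16 members in WT and 8 in KO, and fell in 3 in each, under TMM. Of all genes 38.9% rose and 40.6% fell in WT, and 37.5% and 41% in KO. Under both scalings 1 of the 16 rose and 3 fell in each genotype. Atp5g3 (chromosome 2, 73908447 to 73911326) had the largest rise, from 145, 151 and 146 CPM to 225, 210 and 239 CPM in WT (0.61 ± 0.04, FDR = 1.64e-14) and from 153, 158 and 157 CPM to 220, 223 and 224 CPM in KO (0.51 ± 0.04, FDR = 1.1e-12). The c subunit is encoded by 3 genes that give the same mature protein, and they did not move together: Atp5g1 rose by 0.22 ± 0.05 and 0.24 ± 0.05, while Atp5g2 fell by 0.25 ± 0.05 and 0.17 ± 0.05. Under total counts Atp5g2 was lower and Atp5g3 higher as well. Atp5g3 was the 1 member of complex V that rose under both scalings. The rises of Atp5g1 were smaller than the shift between scalings (0.402 in WT, 0.338 in KO), so they depend on the scaling.

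The subunits of the catalytic head were unequal too. Atp5b was at 724, 759 and 750 CPM in untreated WT and 989, 1006 and 989 CPM after 4 h (0.42 ± 0.03, FDR = 9.57e-14), and it rose by 0.34 ± 0.03 in KO. Atp5a1 rose by 0.19 ± 0.03 and 0.07 ± 0.03. Atp5c1, the gamma subunit that turns within the head, fell from 228, 231 and 210 CPM to 185, 180 and 179 CPM in WT (-0.30 ± 0.04, FDR = 1.57e-07) and by 0.35 ± 0.04 in KO. The plot of levels in each library shows these genes across all 10 groups.

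Shares of the members' summed CPM are free of the choice of scaling. Complex I with its assembly factors made up 25.9% to 26.1% in the untreated WT libraries and 22.2% to 22.7% with Jurkat cells at 4 h, and in KO 25.5% to 26.1% and then 22.65% to 22.85%. Complex V went from 38.6% to 38.7% in untreated WT to 40.8% to 41.2%, and complex IV from 18.2% to 18.4% to 19.2% to 19.7%. None of these ranges overlapped, and the same held in KO. Complex II went from 7.20% to 7.42% in untreated WT to 6.64% to 7.08%, which overlapped the 6.81% to 7.10% seen with Jurkat cells at 30 min. With OVA for 4 h complex I held 25.9% to 26.1% in WT, overlapping the untreated libraries.

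**Figure D2:**
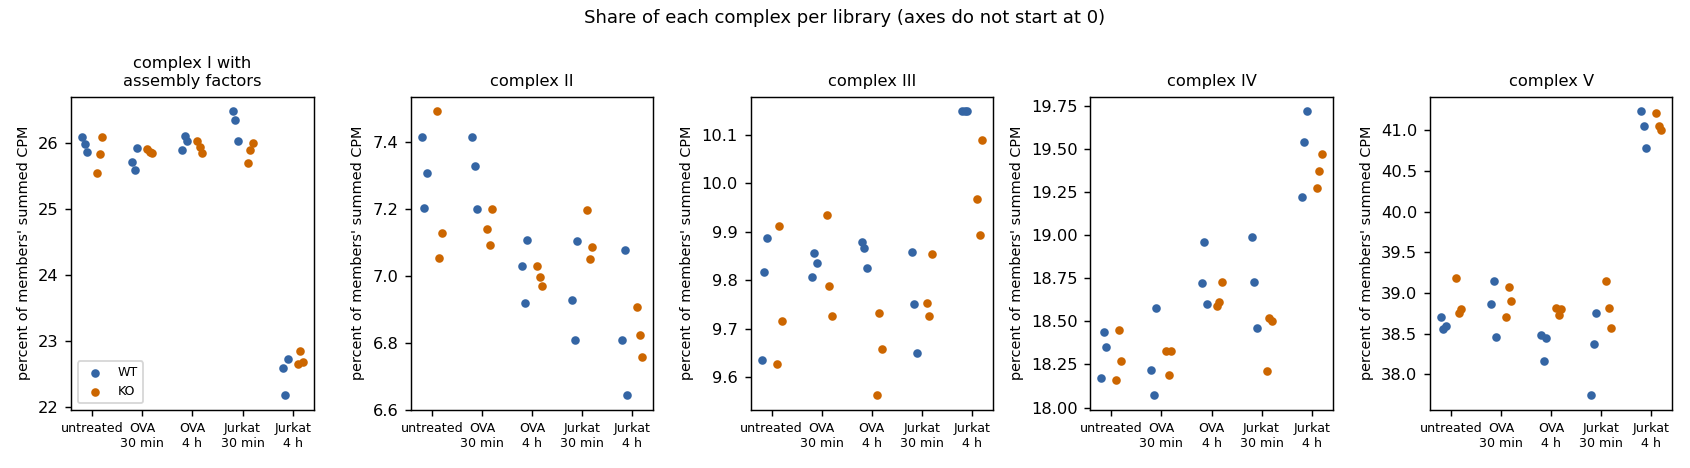
Percent of the members' summed CPM held by each complex (vertical axes, which do not start at 0) in each library, by condition (horizontal axes), WT in blue and KO in orange. In the 4 h Jurkat libraries of both genotypes complex I lies at 22.17% to 22.85%, below every library of the other conditions. Complexes IV and V there lie above every library of the other conditions.

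Set against OVA at 4 h, which shares the duration, Jurkat cells gave 28 members higher (37.2% of all genes) and 25 lower (40.3%) in WT, and 28 higher (36.3%) and 24 lower (40.1%) in KO. With DESeq2's size factors the split was 40 higher and 20 lower in WT and 40 and 21 in KO, and with total counts 1 and 77 in WT and 1 and 74 in KO. The falls led again: Ndufa6 (-1.09 ± 0.05 in WT, -1.17 ± 0.05 in KO), Ndufaf4 in WT (-0.96 ± 0.09), Ndufaf7 in KO (-0.92 ± 0.05) and Ndufs7 (-0.68 ± 0.06, -0.62 ± 0.06). The comparisons with untreated cells and with OVA share the Jurkat libraries, so they are not independent of each other.

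The other genes of the pathway also moved in both directions at 4 h of Jurkat cells, and their counts stand beside 38.9% of all genes higher and 40.6% lower in WT and 37.5% and 41% in KO. Of 16 TCA cycle genes 6 rose and 5 fell in WT, and 4 and 6 in KO. Fh1, fumarase, fell the most (-1.10 ± 0.04 in WT, -1.15 ± 0.04 in KO), and the largest rises were Ogdh in WT (0.45 ± 0.04) and Dld in KO (0.48 ± 0.06). Of 17 carriers and coenzyme Q genes 5 rose and 5 fell in WT, and 5 and 6 in KO. The largest rise was that of Pdss1 in WT (1.45 ± 0.07) and Coq10b in KO (1.31 ± 0.06), and Coq10a fell the most (-1.24 ± 0.07 and -1.27 ± 0.06).

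The lists of assembly factors that are not members, and of regulators, are read against the same shares of all genes (38.9% higher and 40.6% lower in WT, 37.5% and 41% in KO). Of 18 tested for complex IV, 8 rose and 4 fell in WT, and 9 and 4 in KO. Sco1, which delivers copper to complex IV, had the largest rise, 2.30 ± 0.07 in WT and 2.08 ± 0.07 in KO, and the largest falls were Coa6 in WT (-1.18 ± 0.08) and Surf1 in KO (-1.17 ± 0.06). Of 7 further factors of complex I, 2 rose and 4 fell in WT, and 3 and 4 in KO, with Tmem186 at -1.07 ± 0.06 and -0.82 ± 0.06. Of 6 factors of complex III, 1 rose and 4 fell in WT, and 1 and 5 in KO, with Uqcc3 at -1.29 ± 0.07 in WT. Among 14 regulators 4 rose and 7 fell in WT, and 4 and 8 in KO. Gabpb1, a partner of GABPA, rose the most (0.91 ± 0.04 and 0.81 ± 0.04), and Nrf1 was not called (0.01 ± 0.04 and 0.08 ± 0.04). The shift between scalings applies here as well, so rises under 0.402 in WT or 0.338 in KO turn negative under total counts.

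Under treatment 1 to 10 members differed between KO and WT in a condition. In 30 min OVA 5 members were higher in KO (6.25% of all genes) and 0 lower (6.13%). In 30 min Jurkat 0 were higher (5.58%) and 4 lower (3.67%). In 4 h OVA 0 were higher (6.22%) and 1 lower (6.35%), and in 4 h Jurkat 1 was higher (9.37%) and 9 lower (13.5%). Over the 5 conditions 19 of 87 members (21.8%) were called at least once against 37.1% of all genes. Sdhb was the only member called in the same direction more than once, in 2 conditions. The plot of KO against WT shows the medians at 0.00, 0.03, -0.04, -0.07 and -0.04 for untreated, 30 min OVA, 4 h OVA, 30 min Jurkat and 4 h Jurkat.

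**Figure D3:**
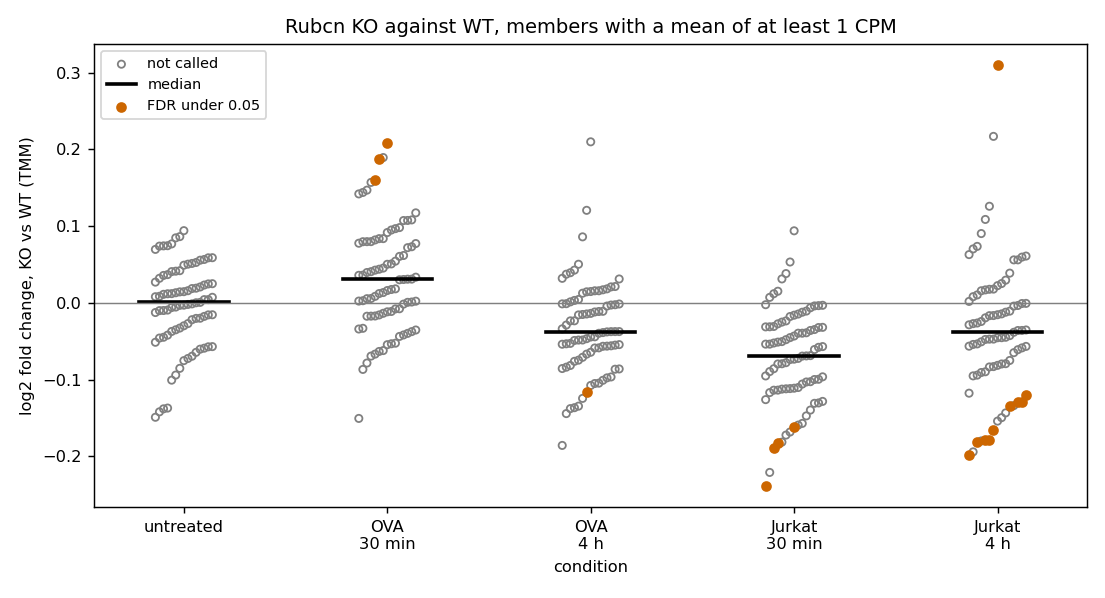
Each point is the log2 fold change of KO against WT (vertical axis, TMM scaling) of 1 of the 83 members with a mean of at least 1 CPM, in each condition (horizontal axis). Filled points passed an FDR of 0.05 and black bars are medians. No untreated member is filled, and the values lie between -0.24 and 0.31 in all conditions.

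With 30 min of OVA the members higher in KO were Uqcr11 (0.21 ± 0.07), Atp5d (0.19 ± 0.05), Atp5g1 (0.16 ± 0.05), Cox4i2 (2.47 ± 0.70) and Ndufa4l2 (3.18 ± 0.89). The last 2 rested on 1 library: KO replicate 2 held 28 counts of Cox4i2 and 52 of Ndufa4l2, while the other KO and WT libraries of this condition held 1 to 5 and 0 to 6. Depth was unequal, with 9.73 M counts in KO replicate 3 against 42.8 M to 47.3 M in the rest of the condition. KO replicate 2 also had the highest stromal sum of the condition, 979 CPM against 731.6 and 864.9 CPM in the other KO libraries and 549.2 to 578.2 CPM in WT. Its part in the result was not tested. Atp5d, the delta subunit of ATP synthase, was at 118, 123 and 128 CPM in WT and 137, 141 and 142 CPM in KO, without overlap. The count of 5 became 3 without KO replicate 1, 0 without KO replicate 2, 2 without KO replicate 3, 1 without WT replicate 1 and 0 without WT replicate 2.

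With 30 min of Jurkat cells the members lower in KO were Cox7c (-0.24 ± 0.07), Ndufs7 (-0.19 ± 0.06), Atp5g2 (-0.18 ± 0.05) and Ndufb9 (-0.16 ± 0.04), and 78 of 87 members were below 0. Cox7c and Ndufb9 are among the members whose reads may be shared with other annotated genes. Ndufb9 was at 71.2, 69.2 and 63.7 CPM in WT and 58.9, 62.9 and 60.5 CPM in KO, without overlap. The count was 0 without KO replicate 1, WT replicate 1 or WT replicate 2, and 10 without WT replicate 3. The T-lineage sum was also lower in KO, 20.9 to 31.5 CPM against 42.4 to 44.7 CPM. Its part in the result was not tested.

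Sdhb (chromosome 4, 140961271 to 140979198) was lower in KO at 4 h with either treatment. With OVA it was at 112, 116 and 112 CPM in WT and 103, 103 and 108 CPM in KO (-0.12 ± 0.04, FDR = 0.0345). With Jurkat cells it was at 118, 121 and 119 CPM in WT and 107, 104 and 105 CPM in KO (-0.18 ± 0.04, FDR = 0.000855). The groups did not overlap in either. The OVA call was lost without KO replicate 1 or 2 or WT replicate 1 or 2 of that group (FDR = 0.0713 to 0.156). Under total counts the differences were -0.080 (FDR = 0.163) and -0.10 (FDR = 0.0501).

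The other members lower in KO with Jurkat cells at 4 h were Ndufv2 (-0.20 ± 0.05), Uqcrb (-0.18 ± 0.06), Ndufa12 (-0.18 ± 0.06), Ndufs1 (-0.13 ± 0.04), Cox4i1 (-0.13 ± 0.05) and Cox5a (-0.12 ± 0.04), with Ndufs4 and Ndufb10, which were named after their values were seen. Reads of Uqcrb and Ndufa12 may be shared with copies. Ndufv2, a core subunit that carries an iron-sulphur cluster, was at 82.5, 81.6 and 82.8 CPM in WT and 69.8, 72.1 and 73.1 CPM in KO, without overlap. Ndufaf4 was higher in KO, at 12.9, 13.9 and 12.7 CPM against 10.7, 9.66 and 11.5 CPM (0.31 ± 0.09, FDR = 0.0128). The direction of the group of calls turned with scaling: under total counts 8 members were higher and 0 lower, and Ndufaf4 was the member called under both. The count of 10 was 2 without KO Jurkat 4 h replicate 2, 6 without WT Jurkat 4 h replicate 2 and 4 without WT replicate 3. The T-lineage sum was 69.4 to 88.2 CPM in KO and 93.6 to 123 CPM in WT, and its part in these differences was not tested.

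The difference between the genotypes in the response to 4 h of Jurkat cells was called for 0 members higher and 0 lower (1.72% and 2.55% of all genes), with 11 at an unadjusted p under 0.05. The smallest p were those of Cox5a (-0.18 ± 0.05, FDR = 0.0589) and Ndufv2 (-0.22 ± 0.07, FDR = 0.0623). DESeq2 called 3 members, all with a lower response in KO, and without KO Jurkat 4 h replicate 1 the count was 1. The difference between genotypes was -0.02 ± 0.06 for Cox7a2l (FDR = 0.917), -0.07 ± 0.07 for Ndufa6 (FDR = 0.642) and 0.07 ± 0.06 for Ndufaf7 (FDR = 0.643), by edgeR's test, which does not show that the genotypes act alike.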

How the data were processed

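RNA sequencing was analysed from 30 libraries in 10 groups of 3, with groups and replicate numbers from the sample titles. Unnormalized read counts for each gene were deposited by the authors in a single table beside symbol, Entrez identifier and mm10 interval, per the file headers. Per the submitters' processing notes, STAR 2.5, Subread, featureCounts 1.5.0-p1 and DESeq2 were used with mm10, with no role stated. The sources used here do not give the annotation, the use of strand or the handling of human reads. All columns of counts matched a sample.

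Counts were scaled by TMM and kept by filterByExpr by group, which left 14808 genes. They were fitted with edgeR 4.0.16 (R 4.3.3; quasi-likelihood F test, two-sided) with 1 coefficient for each group and all 30 libraries together. A call is a Benjamini-Hochberg FDR under 0.05 over all genes. The SE is the size of the log2 fold change over the square root of F. Levels are CPM on TMM-scaled libraries. Counting floors cover counting error only. The test was checked on counts simulated from the levels of untreated WT cells, with few genes changed, equally up and down, in 1 group. Those counts held no broad shift like that with Jurkat cells at 4 h, so the check cannot judge the choice of scaling.

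The members and the lists were chosen with earlier results of these data known. Core subunits, isoforms and assembly factors were named by role. Some results that this rule would name are not reported here. For each comparison and class, the called members with the largest rise and fall and at least 5 CPM were named too. Of the other lists, only the largest called rise and fall were named, apart from Nrf1. Alternatives were DESeq2 1.42.0, its size factors, total counts, no filter, a filter of 5 CPM in 3 libraries, the compared groups alone, the replicate number as a block and leaving out each library. Motifs were searched in RefSeq promoter windows (GRCm38.p6), and lengths and shared 50-base stretches were taken from GENCODE M21.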

Additional observations from a re-analysis of the deposited data

How the results depend on the processing

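Of 83 named values of a member in a comparison, refitted 1079 times in all, 946 refits kept the direction and the call, 119 kept the direction and lost the call, and 14 reversed. All 14 reversals came from scaling to total counts in comparisons with Jurkat cells at 4 h. Against untreated WT the log2 values became -0.25 for Ndufv1, -0.20 for Ndufaf1 and -0.082 for Sdhc, and against untreated KO -0.12 for Ndufaf2 and -0.084 for Sdhc. Against OVA they became -0.22 for Ndufaf1, -0.16 for Ndufv1, -0.16 for Sdhc, -0.036 for Ndufb6 and -0.017 for Uqcrb in WT, and -0.21 for Ndufv1, -0.12 for Sdhc, -0.049 for Uqcrb and -0.020 for Cox5a in KO. The cause was not tested.

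Counts of called members moved by over 1.5 times as follows. With the compared groups fitted alone, fewer libraries gave the spread, and the counts were 24 for Jurkat at 30 min in WT, 2 in KO, 0 for OVA at 30 min in WT, 14 for OVA at 4 h in KO, and for KO against WT 3 with 30 min OVA, 2 with 4 h OVA, 1 with 30 min Jurkat and 6 with 4 h Jurkat. DESeq2 gave 7 and 16 for KO against WT with 30 min and 4 h of Jurkat, and 3 for the genotype difference in the 4 h Jurkat response, where DESeq2's size factors gave 1 and the filter of 5 CPM gave 3. Without a filter KO against WT gave 5 with 4 h Jurkat and 0 with 4 h OVA. With total counts it gave 0 with 4 h OVA, and Jurkat at 30 min in KO gave 2. Without Cox4i2 and Ndufa4l2, chosen after seeing the data, KO against WT with 30 min OVA gave 3.

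Leaving out 1 library gave ranges of 15 to 51 for Jurkat at 30 min in WT, 0 to 4 in KO, 0 to 1 for OVA at 30 min in WT, 0 to 2 in KO, 13 to 22 for OVA at 4 h in WT and 5 to 10 in KO. For KO against WT the ranges were 0 to 7 with 30 min OVA, 0 to 1 with 4 h OVA, 0 to 10 with 30 min Jurkat and 2 to 9 with 4 h Jurkat. The genotype difference in the 4 h Jurkat response ranged from 0 to 1, and the response itself from 57 to 67 in WT and 56 to 62 in KO.

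With the replicate number as a block no count moved by over 1.5 times, for example 6 for Jurkat at 30 min in KO and 26 for OVA at 4 h in WT. Same-numbered libraries deviated together, with all 3 correlations above 0.1, in 3 of 15 comparisons: KO against WT untreated, Jurkat at 30 min in WT and OVA at 4 h in WT. There the block gave 0, 46 and 26 members called and changed no count by over 1.5 times. In the other 12 the numbers are not shown to pair libraries: of all 45 pairs 17 were above 0.1, with a range of -0.299 to 0.592. Some values between untreated KO and WT lay more than 1 SE from 0 without a call by edgeR's test. Examples are -0.14 ± 0.07 for Ndufaf3 (FDR = 0.276) and 0.08 ± 0.04 for Atp5g3 (FDR = 0.203), which are not shown to be differences. Members under 1 CPM rest on few counts.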
